A study of Rattus norvegicus with 4 samples.

Results

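Cers6 and Dgkh are the host genes of 13 of the 4942 circular RNAs (circRNAs) listed for rat sciatic nerve, 6 from Cers6 and 7 from Dgkh. A circRNA is closed by a back-splice, which joins the donor end of a downstream exon to the acceptor end of an upstream one, and a read across that junction counts the circle. The 13 were taken as all listed circRNAs whose host symbol is Cers6 or Dgkh. Both genes had been picked because their summed junction reads were high after nerve crush and listed at 0 in sham nerve, so every crush against sham value of theirs is given as a description with no test. The nerves came from Sprague-Dawley rats of postnatal week 6 and were taken 24 h after surgery for total RNA. The crush group had a 3 mm stretch pressed with forceps 2 times, 15 s each and 3 s apart, and the stretch was taken with 1 mm of nerve at both ends. In the sham group the nerve was exposed and not crushed. Each group had 2 libraries, and the labels do not say whether they came from separate animals. The whole nerve segment was sequenced, with its Schwann cells, fibroblasts, vessels and any infiltrating cells.

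Cers6 encodes ceramide synthase 6, an enzyme that joins a fatty acyl chain, preferably palmitoyl, to a sphingoid base to make ceramide. Ceramide is the core of sphingomyelin and of the galactolipids that are abundant in myelin, and is itself a signal in cell stress. Dgkh encodes diacylglycerol kinase eta, which phosphorylates the second messenger diacylglycerol to phosphatidic acid. That step ends the activation of protein kinases C and D by diacylglycerol and supplies a precursor of phospholipids.

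The sequences around the annotated start of the 2 host genes are shown as their sequence context. The like levels of the 2 genes were what chose them, so nothing is read from the motifs they share. RefSeq gives, in build GRCr8, the 300 bases from 250 before to 50 after the start of Cers6 (chr3:74038611-74038910, plus strand) and of Dgkh (chr15:60559728-60560027, minus strand), printed along the strand of the gene. Capitals mark every match to 1 of 10 motifs searched on both strands.
Cers6: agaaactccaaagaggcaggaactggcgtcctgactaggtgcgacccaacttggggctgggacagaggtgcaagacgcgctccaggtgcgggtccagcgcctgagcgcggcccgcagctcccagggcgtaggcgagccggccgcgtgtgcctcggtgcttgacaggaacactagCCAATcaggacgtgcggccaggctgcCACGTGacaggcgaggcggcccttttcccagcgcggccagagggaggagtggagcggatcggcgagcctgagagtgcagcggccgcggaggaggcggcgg
Dgkh: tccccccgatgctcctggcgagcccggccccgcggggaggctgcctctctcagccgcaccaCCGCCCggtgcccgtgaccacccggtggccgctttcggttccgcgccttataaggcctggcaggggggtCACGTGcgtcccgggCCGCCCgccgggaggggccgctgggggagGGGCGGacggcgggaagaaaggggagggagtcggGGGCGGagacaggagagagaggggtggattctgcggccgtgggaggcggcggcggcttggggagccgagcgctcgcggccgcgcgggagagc
Both windows held CACGTG, an E box, which 6.42% of the 33469 promoter windows of the same length held. It began 50 bases before the start of Cers6 and 120 bases before that of Dgkh. The Cers6 window also held CCAAT (37.5% of all windows), and the Dgkh window held 4 GC boxes, GGGCGG on either strand (33.1% of all windows). The other 7 motifs had no match in either window, which says only that these letters were not there. They were TGACTCA for AP-1 (4.63% of all windows), TGACGTCA for CRE (1.83%), the NF-kB motif (0.111%), its short form GGAANTTCC (0.872%), TTGCGCAA for C/EBP (0.170%), TTCNNNGAA for STAT (8.87%) and GAGGAAGT for PU.1 (2.42%). GC content was 69.3% for Cers6 and 77.0% for Dgkh, against a median of 51.7% over all windows.

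Coordinates of circRNAs are those of the deposited files, in build Rnor_6.0, with a base convention that was not stated. The span is the distance between the ends in the genome. It includes introns and is not the length of the circle. On the plus strand, where Cers6 lies, the acceptor is the lower coordinate, and on the minus strand, where Dgkh lies, it is the higher one.

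The 6 circRNAs of Cers6 (ENSRNOG00000024595, chromosome 3) covered 136983 bases from 55157605 to 55294588. Of these, 4 began at the same acceptor end, 55157605, and ran to 4 donor ends. The most abundant of all 13, at 55157605 to 55224851 and classed as exonic, spanned 67246 bases and had 30 and 22 junction reads after crush. In sham it was at 0 in both libraries, as were the other 12. The next, also exonic, ended at 55165724 (span 8119 bases) and had 10 and 9 reads after crush. The other 2 with this acceptor appeared in crush replicate 1 alone. An exonic one to 55273136, the longest at 115531 bases, had 4 reads, and one classed as intronic to 55174365 (16760 bases) had 3. The remaining pair shared the donor end 55294588. The exonic circRNA from 55224794 (69794 bases) had 0 and 5 reads after crush, and the exonic one from 55291786 (2802 bases) had 2 and 3. The first of this pair began 57 bases before the end of the most abundant circRNA, so that both held the stretch from 55224794 to 55224851.

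The 7 circRNAs of Dgkh (ENSRNOG00000010065, chromosome 15) covered 81154 bases from 60813930 to 60895084. Here 3 shared the acceptor end 60895084, the most upstream of the 7. The most abundant, exonic and the shortest, lay at 60892679 to 60895084 (2405 bases) and had 24 and 20 reads after crush, and 0 in both sham libraries. From the same acceptor, one classed as intronic reached 60886697 (8387 bases) with 0 and 5 reads after crush, and an exonic one reached 60813930 (81154 bases) with 0 and 2. The other 4 were exonic and lay downstream in the gene. Of these, 2 shared the donor end 60816746. The one with its acceptor at 60832651 (15905 bases) had 5 and 3 reads after crush, and the one with its acceptor at 60821766 (5020 bases) had 3 and 0. The circRNA at 60829810 to 60836865 (7055 bases) had 2 and 0 reads, and that at 60836758 to 60851201 (14443 bases) had 0 and 2. These last 2 overlapped by the 107 bases between 60836758 and 60836865.

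**Figure D1:**
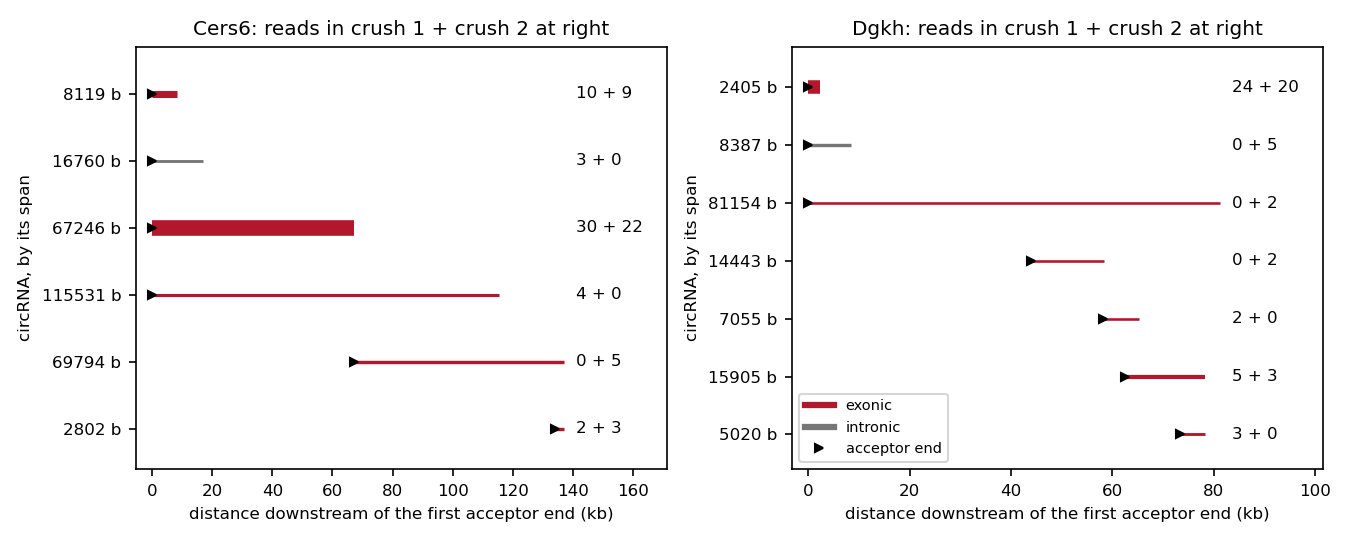
Position of each circRNA of Cers6 (left) and Dgkh (right) along its gene, in kb downstream of the most upstream acceptor end, with the direction of transcription to the right. Each line is 1 circRNA named by its span, its thickness grows with the crush reads, and the numbers give reads in crush replicate 1 plus crush replicate 2. In Cers6, 4 of 6 lines start at the first acceptor, and in Dgkh 3 of 7 do.

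One acceptor end took most of the junction reads of each gene. The acceptor at 55157605 took 47 of 49 Cers6 reads in crush replicate 1 (95.9%, 95% exact Clopper-Pearson interval 86.0% to 99.5%) and 31 of 39 in crush replicate 2 (79.5%, 63.5% to 90.7%). The acceptor at 60895084 took 24 of 34 Dgkh reads in crush replicate 1 (70.6%, 52.5% to 84.9%) and 27 of 32 in crush replicate 2 (84.4%, 67.2% to 94.7%). The intervals of the replicates overlapped for both genes, which does not test whether the replicates differed. Intervals and floors here cover counting error only, since reads without molecular identifiers are not independent molecules.

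The single most abundant circRNA held 61.2% (46.2% to 74.8%) and 56.4% (39.6% to 72.2%) of Cers6 reads in crush replicates 1 and 2. For Dgkh it held 70.6% (52.5% to 84.9%) and 62.5% (43.7% to 78.9%). Such concentration was common among hosts with many circles. Over the 32 host genes with at least 6 circRNAs and at least 30 crush reads, the median share was 52.7% for the top circRNA and 74.5% for the top acceptor. Dgkh ranked 6 and Cers6 ranked 13 of the 32 by the top circRNA, and Cers6 ranked 10 and Dgkh 14 by the top acceptor. Sharing of ends by circRNAs was also common. An acceptor was shared by 4 of 6 Cers6 circRNAs (66.7%) and 3 of 7 Dgkh circRNAs (42.9%), against 41.9% of the 2747 circRNAs of other hosts with at least 2. A donor was shared by 2 of 6 (33.3%) and 2 of 7 (28.6%), against 32.5%.

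The main circles of the 2 genes both began at the most upstream acceptor end in use and differed in span. The main Cers6 circRNA was longer in the genome than 96.9% of the 3731 exonic circRNAs, whose median span was 8809 bases. The main Dgkh circRNA was longer than 18.4% of them. Long spans also occurred among the minor circles of both genes, with 99.2% and 97.1% of exonic circRNAs shorter than the Cers6 circles of 115531 and 69794 bases and 98.0% shorter than the Dgkh circle of 81154 bases.

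All 13 circRNAs were called after crush and none after sham. In crush, 5 of the 13 were called in both libraries (38.5%), against 21.8% of the 3126 circRNAs called in any crush library. The genes were picked for high crush reads, which favours calls in both libraries, so nothing is read from this difference. The other 8 were called in 1 crush library each, with 2 to 5 reads. A listed count is 0 or at least 2, so a 0 means that the circRNA was not called in that library and may hide a read. Crush replicate 1 held 5 Cers6 and 4 Dgkh circRNAs, and crush replicate 2 held 4 and 5. In each gene the top circRNA exceeded all others in both crush libraries, and the 8119-base Cers6 circle exceeded the 4 below it in both. The order of the remaining 4 of Cers6 and 6 of Dgkh was not resolved by counts of 0 to 5.

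**Figure D2:**
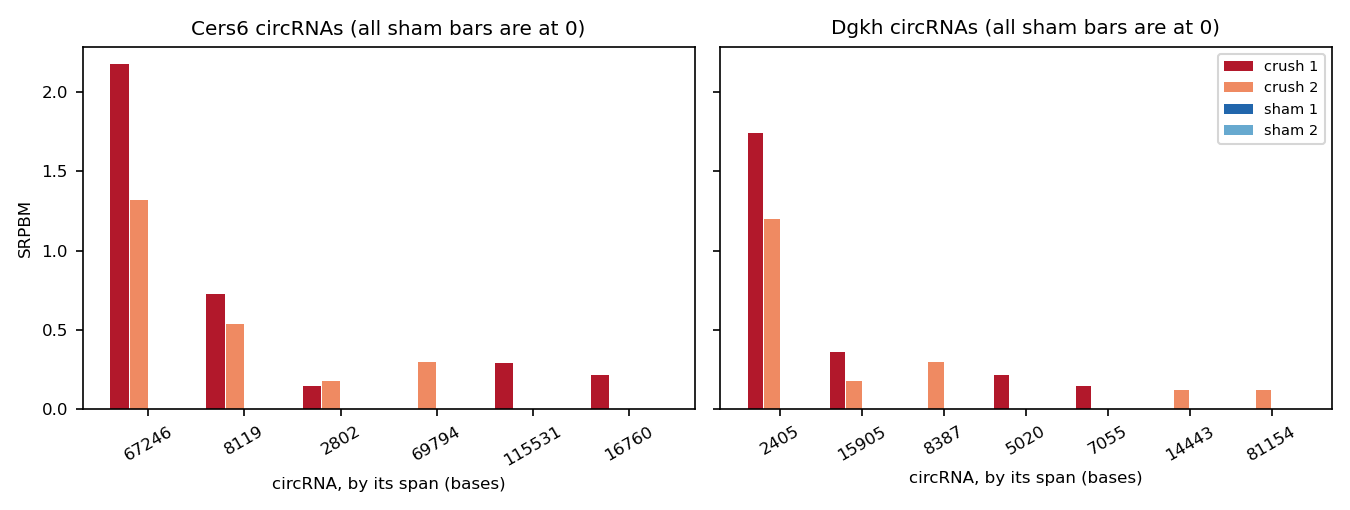
Level of every Cers6 and Dgkh circRNA in each library, in SRPBM, the authors' scaled junction signal. Bars are single libraries, circRNAs are named by span and ordered by crush reads, and all sham bars are at 0. The 67246-base circle of Cers6 and the 2405-base circle of Dgkh are the highest in both crush libraries.

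In SRPBM, the junction reads of a library times 1 constant, commonly read as spliced reads scaled to mapped reads, the main Cers6 circRNA had 2.18 and 1.32 in the crush libraries and 0 in both sham libraries. Its crush mean was 1.75 ± 0.61 (SD, n = 2), which is 7.68-fold the floor that 3 reads in each sham library would give. The 8119-base circle had 0.725 and 0.538 SRPBM after crush, a mean of 0.632 ± 0.132 and 2.78-fold that floor. The main Dgkh circRNA had 1.74 and 1.20 SRPBM after crush, a mean of 1.47 ± 0.38 and 6.46-fold the floor. The 15905-base Dgkh circle had 0.363 and 0.179 SRPBM, a mean 1.19-fold the floor, but crush replicate 2 held only 3 of its reads. The 2802-base Cers6 circle was at 0.714-fold, and no ratio was taken for circles called in 1 crush library. These ratios leave out counting error in the crush reads and are not lower bounds. Because the tissue is bulk, more cells of a type and more circRNA per cell cannot be told apart for any of these values.

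Summed over their circRNAs, the 2 genes were among the higher hosts of crushed nerve. Cers6 had 49 and 39 junction reads after crush against 0 in both sham libraries. Its crush levels were 3.55 and 2.33 SRPBM (mean 2.94 ± 0.86, SD, n = 2), which is 12.9-fold the level of 3 reads in each sham library. As each circRNA listed at 0 may hide a read, the 6 of Cers6 could hide 6 reads in a sham library, and the ratio is then 6.47-fold. Dgkh had 34 and 32 reads against 0 and 0 in sham, or 2.47 and 1.91 SRPBM after crush (mean 2.19 ± 0.39), which is 9.63-fold the level of 3 sham reads and 4.13-fold that of 7 hidden ones. Cers6 was above Dgkh in both crush libraries. A junction read counts 1 junction whatever the length of the circle, so these sums are not per length. Cers6 ranked 15 and Dgkh 26 of 2327 host genes by mean crush SRPBM, and 1 and 4 among the 790 hosts with no reads in sham. Among the 23 hosts with at least 30 reads in both crush libraries, only they had 0 in both sham libraries. That cutoff lies just under the lower Dgkh count of 32, and both genes were chosen for this pattern. Klhl21 (22 and 51 reads after crush), Mgam (23 and 21) and Csf3r (28 and 16) also had 0 in both sham libraries.

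Cers6 made up 0.594% (0.440% to 0.784%) and 0.432% (0.307% to 0.590%) of all junction reads in crush replicates 1 and 2. Dgkh made up 0.412% (0.286% to 0.575%) and 0.354% (0.243% to 0.50%). Within each crush library the intervals of the 2 genes overlapped, which does not test whether the genes differed. In sham, 0 of 9018 and 0 of 8726 junction reads allow a share of up to 0.0333% and 0.0344%, taking a 0 as a full count. With 1 hidden read for each circRNA the share would be 0.0665% and 0.0688% for Cers6 and 0.0776% and 0.0802% for Dgkh. These last shares leave out counting error and are not upper limits. These values rest on libraries of 8250 to 9027 junction reads.

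For reference, the edgeR test of all circRNAs called 7.48% of 428 as higher after crush. Of the 13 members, 3 had enough reads to enter it (5 or more in 2 libraries), all through the crush libraries, and no test of theirs is given. In the test of host sums, 1.84% of 434 hosts were called higher and 0.461% lower. No circRNA was called with the replicate block, and neither a circRNA nor a host with a minimum of 2 reads in 2 libraries. Without crush replicate 2, 0 hosts and 6 circRNAs were called, and without sham replicate 2, 84 hosts. With library totals from the SRPBM constants in place of TMM scaling, 8 hosts were called higher and 6 lower, and the median log2 change of all tested hosts moved to -0.30 from 0.11. Over all listed circRNAs, 4.51% were called in both crush libraries and at 0 in both sham libraries, as were 6.27% of all host sums. Since the genes were chosen on this contrast, nothing is read from these shares.

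Of 83 host genes with at least 6 circRNAs, 7 had no reads in sham. Beside Cers6 and Dgkh they were Klhl21 (22 and 51 reads after crush), Ipcef1 (14 and 13), Arhgap15 (10 and 7), Lpcat2 (5 and 12) and Spag9 (5 and 10).

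**Figure D3:**
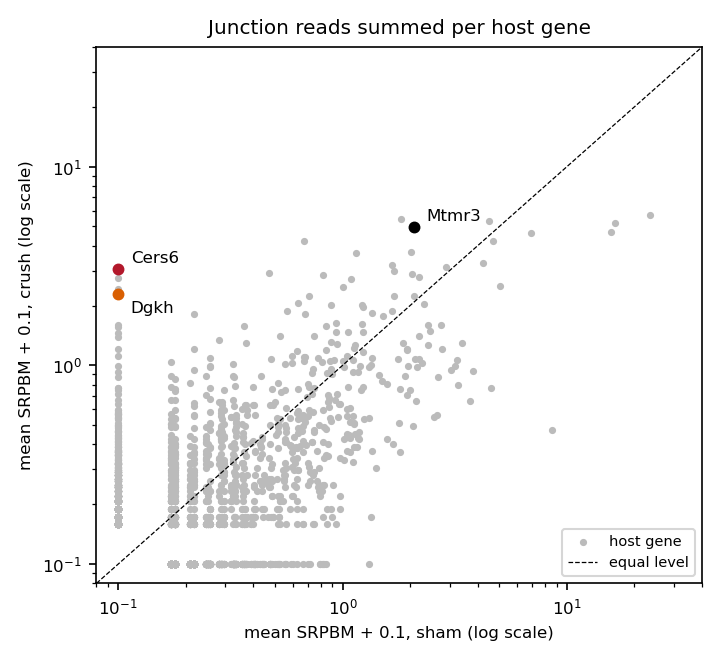
Junction reads summed per host gene, as mean SRPBM + 0.1 after crush (vertical, log scale) against sham (horizontal, log scale), for 2327 host genes with the line of equal level dashed. Cers6 and Dgkh lie at the sham value of 0 near the top of that column, and the phosphoinositide phosphatase gene Mtmr3 lies above the line.

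The hosts whose sums were most like those of Cers6 over the 4 libraries, by the mean absolute difference in log2(SRPBM + 0.1), were Dgkh (0.20), Klhl21 (0.37), Mgam (0.47) and Csf3r (0.50). For Dgkh they were Cers6 (0.20), Mgam (0.28), Csf3r (0.30) and Klhl21 (0.31). Klhl21 encodes a cullin ligase adaptor, Mgam a maltase-glucoamylase and Csf3r the receptor for granulocyte colony-stimulating factor. Mgam had 23 and 21 reads after crush and Csf3r 28 and 16, and both had 0 in sham. All these hosts were at 0 in both sham libraries, so the measure turned on the 2 crush libraries.

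The summed reads of a list of leukocyte genes, most of them myeloid markers, were also higher after crush than after sham, though 15 of the 24 had none. The list was chosen with earlier results of these data known, so nothing is read from its sum. Of 24 such genes, 9 had circRNA reads, 73 and 56 in crushed nerve against 0 and 2 in sham nerve, or 5.29 and 3.35 SRPBM against 0 and 0.157. Both sham reads were of Mrc1, which had none after crush. Ptprc and Cybb had 2 reads each, in crush replicate 1 alone. All 5 that could be tested were at 0 in both sham libraries and had enough reads through the crush libraries alone. Their direction was fixed, so nothing is read from their tests. Of these, Csf3r had 28 and 16 reads after crush. Without either crush library it had too few libraries with reads to be tested. The leukocyte kinase gene Syk had 13 and 12 reads after crush and Dock8, a guanine nucleotide exchange factor gene, 8 and 12, both with none after sham. The defining markers Itgb2, Csf1r, Cd68, Adgre1, Lyz2, S100a8 and S100a9 gave no circRNA in any library, while Itgam had 6 and 5 reads after crush. The part of these cells in the Cers6 and Dgkh levels was not tested. Of 15 Schwann cell markers, which should define the labelled tissue, Mbp, Pmp22 and Cdh19 alone had reads, 2 and 0 after crush against 3 and 9 after sham, and Egr2 and Sox10 gave none. Lists for lymphocytes and mural cells had none, and those for endothelial cells, fibroblasts, perineurial cells, muscle fibres and adipocytes had at most 11 reads in a library, from Flt1, Tek, Vwf, Emcn, Dcn, Tjp1, Myh1, Neb, Ryr1 and Pparg.

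No other ceramide synthase gene gave a circRNA, and of the 9 other diacylglycerol kinase genes Dgkb alone did, with no reads in crushed nerve and 9 and 0 in sham nerve. On 5 lists of lipid genes, 58 of the 214 genes other than Cers6 and Dgkh had circRNA reads. These came to 272 and 263 after crush and 195 and 172 after sham. Most were on the phosphoinositide list, with 191 and 136 in crushed nerve and 109 and 93 in sham nerve. Mtmr3 alone held 95 and 48 of these in crush and 21 and 31 in sham. Effectors of diacylglycerol were higher in crush (25 and 41 against 18 and 19), with Prkd3 alone holding 18 and 22 against 8 and 9. The ceramide and sphingolipid list was lower (20 and 21 against 24 and 30). The other lists overlapped between the groups. The totals therefore show no rise shared by all lists. Of the 58 genes, 11 had enough reads for the host test. None of the 11 rose or fell (edgeR quasi-likelihood test, adjusted p under 0.05), and DESeq2 also called 0. An unadjusted edgeR p under 0.05 was held by 4 of the 11 and by 111 of all 434 hosts. Other settings did call some, with 2 of 5 higher at a minimum of 10 reads in 2 libraries and 1 of 58 lower without a filter. Over all hosts the same settings called 30 of 188 higher and 12 of 2327 lower. In the main test the median log2 change of the 11 lipid hosts was 0.48, with 8 higher and 3 lower. Over all 434 hosts it was 0.11, with 232 higher and 202 lower.

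Around Cers6 in the ceramide and sphingolipid list, 8 of 48 other genes had reads and 2 were tested. The ceramidase gene Acer3 had 7 and 12 reads in crushed nerve against 8 and 12 in sham nerve, and the ganglioside synthase gene St3gal5 had 2 and 3 against 3 and 7. Ugt8, the gene for the enzyme that makes the galactosylceramide of myelin from ceramide, had 4 and 4 against 8 and 7, without overlap, as in 30.2% of hosts tested with sham higher. Its log2 change of -0.68 ± 0.75 (SE) missed the threshold (adjusted p = 0.628, edgeR).

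Around Dgkh in the list of diacylglycerol and phosphatidate enzymes, 9 of 51 other genes had reads and 2 were tested. Pld1, a phospholipase D gene whose product also makes phosphatidic acid, had 5 and 20 reads in crushed nerve against 7 and 2 in sham nerve (adjusted p = 0.293, edgeR), and Cept1, whose enzyme uses diacylglycerol to make phospholipids, had 7 and 5 against 7 and 3. Among effectors of diacylglycerol, 10 of 20 genes had reads and 1 was tested. Prkd3, a protein kinase D gene, had 18 and 22 reads in crushed nerve against 8 and 9 in sham nerve, a lack of overlap that 28.3% of hosts tested showed with crush higher, and its log2 change of 1.43 ± 0.50 (SE) missed the threshold (adjusted p = 0.133, edgeR). The protein kinase genes Prkcb (3 and 11 against 0 and 0) and Prkd1 (0 and 0 against 2 and 5) were not tested.

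The phosphoinositide list, where 21 of 55 genes had reads and 4 were tested, held the lipid hosts with the most reads. Mtmr3, a myotubularin phosphatase gene, had 95 and 48 reads in crushed nerve against 21 and 31 in sham nerve (log2 change 1.68 ± 0.50, SE, adjusted p = 0.0836, edgeR). The kinase gene Pik3c2a had 10 and 7 against 14 and 8. Tested among hosts with at least 10 reads in 2 libraries, Mtmr3 passed (adjusted p = 0.0378, edgeR), where 30 of 188 hosts were called higher. With at least 2 reads in 2 libraries its adjusted p was 0.188 (edgeR), the highest of the settings that kept all 4 libraries. With 1 library left out its log2 change ranged from 1.15 to 2.30.

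Of the fatty acid and acyl chain genes, 10 of 40 had reads and 2 were tested. Lpcat2, a lysophospholipid acyltransferase gene that also makes platelet-activating factor, had 5 and 12 reads over 6 circRNAs in crushed nerve and none in sham nerve. It had enough reads through the crush libraries alone, so its direction was fixed and nothing is read from its test. The fatty acid elongation gene Hacd1 had 7 and 8 against 9 and 10, and the acyltransferase gene Mboat2 had 0 and 4 against 4 and 9.

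**Figure D4:**
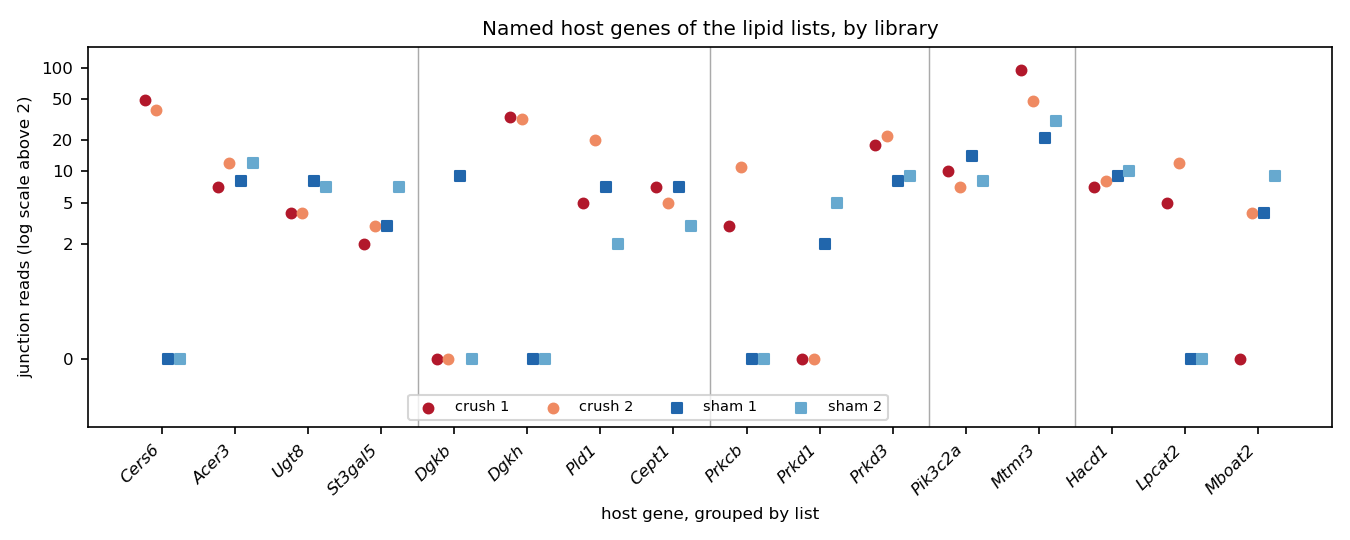
Junction reads of the named lipid genes in each library, on a scale that is logarithmic above 2 reads and linear below, with circles for crush and squares for sham and vertical lines between the 5 lists. Cers6, Dgkh, Prkcb and Lpcat2 are at 0 in both sham libraries with reads in both crush libraries, as are 6.27% of all host sums. Prkd1 and Dgkb are at 0 in both crush libraries with reads in sham, while Acer3, Cept1, Pik3c2a and Pld1 overlap between the groups.

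The 2 loci held little other circRNA. No circRNA of another host or without a host overlapped either locus. Within 100000 bases of the Cers6 circRNAs none was listed, and within that distance of the Dgkh circRNAs there was 1, of the neighbouring gene Akap11, an anchoring protein gene, at 60738040 to 60748369. It lay 65561 bases away, with 0 and 2 reads in crushed nerve and none in sham nerve.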

How the data were processed

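Each of the 4 libraries has a file that holds, per the file headers, the authors' raw count of back-splice junction reads of every circRNA. Per the file headers it also holds the deposited SRPBM, a signal that equalled the count times 1 constant in each library, and the genomic length, which equalled end minus start for all 4942 circRNAs. Per the submitters' processing notes, Rnor_6.0, BWA, CASAVA 1.8 and edgeR were used, with no role stated. The circRNA caller was not given in the sources used here. Libraries held 8250 to 9027 junction reads. Counts were summed per host gene, leaving out 3 circRNAs with 2 hosts. Of 2327 host symbols, 2273 were current in the RefSeq table of GRCr8 or were updated through a synonym there. CircRNAs and hosts with at least 5 reads in at least 2 libraries were tested with the quasi-likelihood test of edgeR 4.0.16 in R 4.3.3 (TMM scaling, all 4 libraries, two-sided, Benjamini-Hochberg adjustment over all features tested, threshold 0.05), after a test on simulated data. DESeq2 1.42.0 was an alternative. Folds against sham were taken with 3 reads in place of each 0 in sham. They leave out counting error in the crush reads and are not lower bounds. This holds the more for a host sum, whose circRNAs may each hide a read.

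The 2 genes and the lists were chosen with earlier results of these data known. The genes named from the lists were every member past the host test, every other Cers or Dgk gene with reads and the 3 others of each list with the highest mean SRPBM, except that some are not reported here. Hosts most alike were the 4 with the smallest mean absolute difference in log2(SRPBM + 0.1). The p-values measure the spread between these libraries, which may be technical. Replicate numbers came from the titles alone. The deviations of crush and sham replicates with the same number had a correlation of -0.11 over tested circRNAs and -0.06 over tested hosts, so the numbers were not used to pair libraries.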

Additional observations from a re-analysis of the deposited data

How the results depend on the processing

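With the replicate block, 0 of 428 circRNAs, 24 hosts and 0 lipid hosts passed in edgeR, against 51, 10 and 0 without it, and 53 circRNAs had an unadjusted p under 0.05. The crossed pairing, chosen after seeing the data, also gave 0 circRNAs, with 62 at an unadjusted p under 0.05. With at least 2 reads in 2 libraries, 0 circRNAs and 0 hosts passed, where 434 and 293 had an unadjusted p under 0.05. With at least 10, 23 circRNAs, 44 hosts and 2 lipid hosts, Mtmr3 among them, passed. Without a filter, 39 hosts and 1 lipid host (Inpp4b, lower after crush) passed. DESeq2 called 30 circRNAs and 32 hosts. With 1 library left out, 6 to 76 circRNAs, 0 to 84 hosts and 0 to 2 lipid hosts passed. The 84 hosts were those without sham replicate 2. The cause was not tested. Library totals from the SRPBM constants gave 31 circRNAs higher and 28 lower, against 32 and 19. The ratio of Cers6 to the sham floor was 17.1-fold on TMM-scaled counts, 19.4-fold with a floor of 2 reads and 5.27-fold without its main circRNA. It was 10.3-fold to 15.6-fold with 1 library left out. That of Dgkh was 12.8-fold, 14.5-fold and 3.17-fold in the same settings, and 8.42-fold to 10.8-fold with 1 library left out. With a floor of 1 hidden read for each circRNA, an alternative chosen after seeing the data, the ratios were 6.47-fold for Cers6 and 4.13-fold for Dgkh. The share of crush reads in the main Dgkh circRNA was 84.6% over circRNAs called in both crush libraries, against 66.7% over all. The 4 hosts named as most like each gene were the same 4 with a pseudocount of 0.5 or 0.02 and by Euclidean distance. At this depth a circRNA needs several reads in both libraries of a group before levels can be ordered.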
